A study of Mus musculus with 6 samples.

Results

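The genes described here are 31 genes of the PPAR alpha programme and of fatty acid oxidation in mouse liver, out of 20914 genes in the deposited count table. They were taken from a list of names, and all 31 were present and had enough counts to be tested, as did 13725 genes in all. By role, the list holds 2 regulators, 2 genes of secreted proteins, 4 of the carnitine shuttle, 8 of mitochondrial oxidation, 5 of peroxisomal oxidation, 4 omega hydroxylases, 5 genes of acyl-CoA thioesterases and coenzyme A turnover, and Pdk4. No enzyme of ketone body synthesis is on it.

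The 6 libraries are bulk RNA from mouse livers, with 3 in the group PBS and 3 in the group DOX. All share the genotype label BucheKI/KI-Hep, which marks a knock-in for butyrylcholinesterase in hepatocytes, together with Alb-Cre, a recombinase driven by the albumin promoter and so aimed at hepatocytes. All 6 also carry the treatment label BDL, an abbreviation that usually stands for bile duct ligation. The series compares DOX with PBS livers to ask what overexpression of butyrylcholinesterase in hepatocytes does under that treatment. No DOX library lacks the knock-in, so DOX itself and raised butyrylcholinesterase cannot be told apart in this comparison. The labels do not spell out BDL, DOX or S10D, which stands in every title, and give no age. Nothing in them says that each library is a separate animal, so p-values measure the spread among these 6 libraries, part of which may be technical.

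PPAR alpha is a nuclear receptor that binds fatty acids and, as a dimer with RXR, switches on genes that burn fat, above all in the fasting liver. Long-chain fatty acids enter mitochondria by the carnitine shuttle and are shortened there step by step. Peroxisomes shorten very long chains by a parallel set of enzymes, and Cyp4a enzymes of the endoplasmic reticulum oxidise the far (omega) end of the chain. In mouse liver the Cyp4a genes, the peroxisomal enzymes and the Acot thioesterases are classical responders to PPAR alpha ligands.

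Total counts per library ranged from 32826493 to 41102844. By library size only, 3 counts, taken as the detection floor, correspond to 0.073 to 0.0914 CPM (counts relative to sequencing depth). All other CPM given here are scaled by TMM, a factor that corrects library size for a few very abundant genes. Bche, the gene of butyrylcholinesterase, stood at 192.8, 244.9 and 194.2 CPM in PBS libraries 1, 2 and 3 and at 969.2, 447.5 and 595.0 CPM in DOX libraries 1, 2 and 3, with no overlap. Albumin alone took 4.87% to 5.81% of counts in PBS and 10.1%, 6.09% and 10.2% in the DOX libraries, so scaling matters for this comparison. Hepatocyte markers were abundant, as the liver label has it, and the 11 of them in the table summed to 91663 CPM or more in every library. Markers of the other liver cell types were present too, as bulk tissue gives, and in such samples fewer cells of a type and less RNA per cell cannot be told apart. Of the 5 adipocyte markers in the table, Plin1 and Retn had at most 1 count per library and Cidea 7 to 29. Lipe stood at 11.4 to 15.8 CPM and Pnpla2, a lipase that liver also expresses, at 108.0 to 153.0 CPM.

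No member of the list differed between DOX and PBS at an adjusted p under 0.05 in edgeR's quasi-likelihood test, 0 of 31 against 0.0291% of all tested genes (4 genes). The same held for DESeq2, with 0 of 31 against 1.19% of the genes it tested. At an unadjusted p under 0.05 there were 4 of 31, Fgf21, Hsd17b4, Acaa1b and Pdk4, all with a higher mean in DOX, against 9.9% of all tested genes, so this share of 12.9% is near the background. The log2 fold change of DOX over PBS was above 0 for 23 of 31 members, against 47% of all tested genes, and for 20 of 31 when libraries were scaled by their size only. The median over the members was 0.20 and that over all tested genes -0.02. With scaling by library size only, the median of all tested genes was -0.15 and that of the members 0.07, so the 2 medians lay about as far apart under both scalings.

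**Figure D1:**
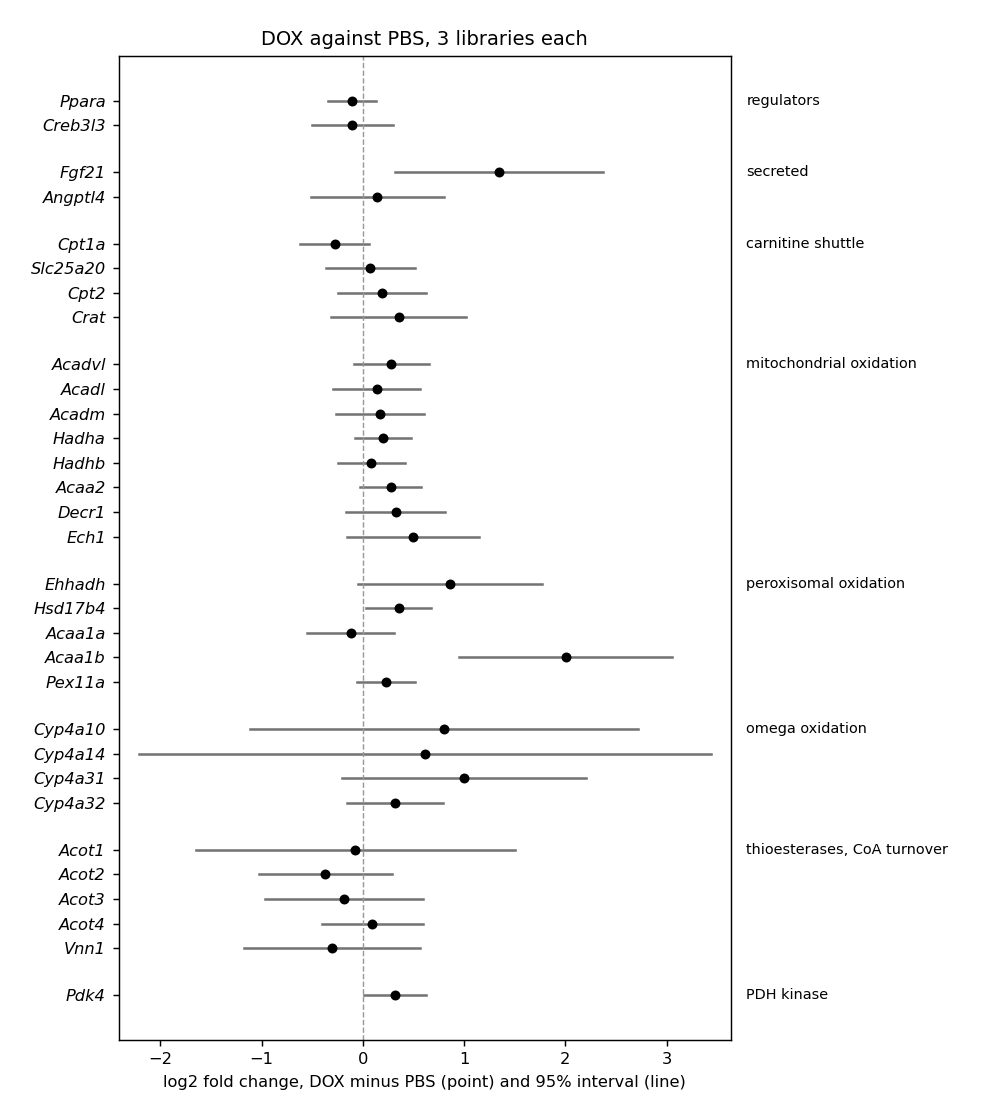
Log2 fold change of DOX over PBS for each of the 31 genes (points, x axis) with its 95% interval from edgeR (bars), grouped by role on the y axis. The intervals of Fgf21, Hsd17b4, Acaa1b and Pdk4 lie above 0, those of the other 27 genes include it, and the widest are those of Cyp4a14, Cyp4a10 and Acot1.

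Ppara, the receptor itself (chr15:85734983-85802819 in GRCm38, protein coding), had nearly the same level in all libraries. It stood at 97.4, 114.8 and 95.2 CPM in PBS and at 91.5, 98.1 and 95.8 CPM in DOX, and the groups overlapped. The log2 fold change was -0.11 (SE 0.10, 95% interval -0.34 to 0.13, edgeR adjusted p = 0.755). On the scale of library size only, all DOX libraries (8.27 to 9.44 FPKM, counts per length and library size) lay below all PBS libraries (9.74 to 11.1 FPKM). On that scale the median log2 fold change of all tested genes was also lower than by TMM. Creb3l3 encodes a liver transcription factor, held in the endoplasmic reticulum until it is cleaved, that shares targets such as Fgf21 with PPAR alpha. It stood at 164.7, 253.2 and 173.5 CPM in PBS and at 161.7, 197.0 and 191.9 CPM in DOX (log2 fold change -0.10 with SE 0.18, edgeR adjusted p = 0.873). Its highest value was that of PBS library 2, and the other 5 libraries lay between 161.7 and 197.0 CPM.

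Among the secreted proteins, Fgf21, a fasting hormone of the liver, was scarce (chr7:45613886-45615490). It had 19, 35 and 46 counts in PBS and 84, 49 and 118 counts in DOX, or 0.439, 1.06 and 1.23 CPM against 2.24, 1.45 and 3.19 CPM. All DOX libraries were above all PBS libraries, with 1.23 and 1.45 CPM as the nearest values. The log2 fold change was 1.34 (SE 0.45), 2.54-fold, and it did not pass the test over all genes (edgeR adjusted p = 0.423). Angptl4 encodes an inhibitor of lipoprotein lipase. It stood at 52.0, 95.4 and 37.7 CPM in PBS and at 72.4, 65.3 and 66.7 CPM in DOX (log2 fold change 0.14 with SE 0.29, edgeR adjusted p = 0.896). The 3 DOX values were close together and lay inside the PBS range.

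The carnitine shuttle gave no called change. Cpt1a, which joins fatty acids to carnitine at the outer mitochondrial membrane and is held to set the rate of the pathway, stood at 385.3, 468.1 and 329.1 CPM in PBS and at 327.4, 350.1 and 297.7 CPM in DOX. Only DOX library 2 reached into the PBS range, and the log2 fold change was -0.28 (SE 0.15, 95% interval -0.62 to 0.06, edgeR adjusted p = 0.569). Slc25a20, the carrier through the inner membrane, Cpt2, which restores the acyl-CoA, and Crat, which handles acetyl groups, had log2 fold changes of 0.07, 0.19 and 0.36. Crat was the most variable of these, with 33.4, 67.2 and 39.7 CPM in PBS and 43.3, 55.5 and 80.4 CPM in DOX. Slc25a20 was at -0.05 with scaling by library size only, and the other 3 kept their sign under every scaling.

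The 8 genes of mitochondrial oxidation all had log2 fold changes above 0, from 0.09 for Hadhb to 0.50 for Ech1 with a median of 0.23, but with scaling by library size only Hadhb was at -0.05. None passed the test, with adjusted p-values of 0.534 to 0.871 in edgeR, and in each the groups overlapped. Acaa2, the thiolase that splits off acetyl-CoA in the last step of each round, had 432.9 ± 52.4 CPM in PBS and 523.2 ± 43.4 CPM in DOX (SD, n = 3 each). Its log2 fold change was 0.27 (SE 0.13, 95% interval -0.03 to 0.58, adjusted p = 0.534). Acadvl, Acadl and Acadm, the dehydrogenases of very long, long and medium chains that open each round, had log2 fold changes of 0.28, 0.14 and 0.17. Hadha and Hadhb, the subunits of the trifunctional protein that performs the later steps on long chains, were at 0.20 and 0.09. The largest difference was in Ech1, an isomerase for unsaturated chains, at 115.5, 225.4 and 145.2 CPM in PBS and 154.7, 243.8 and 288.4 CPM in DOX. Decr1, the reductase for unsaturated chains, followed at 0.32 (SE 0.21). In both genes PBS library 2 and DOX libraries 2 and 3 were high and the other 3 libraries low, a division that crosses the groups.

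Of the 5 peroxisomal genes, 4 had log2 fold changes above 0 under every scaling, and the median was 0.35. Ehhadh, the L-bifunctional enzyme that performs the middle steps of peroxisomal oxidation (chr16:21761287-21787807), stood at 233.6, 305.2 and 222.3 CPM in PBS and at 187.0, 511.9 and 684.0 CPM in DOX. DOX libraries 2 and 3 were above, and DOX library 1 below, all PBS libraries, and the log2 fold change was 0.86 (SE 0.40, 95% interval -0.04 to 1.77, edgeR adjusted p = 0.509). Hsd17b4, the D-bifunctional enzyme, stood at 250.1, 313.5 and 268.3 CPM in PBS and at 301.5, 374.0 and 387.4 CPM in DOX. Its groups overlapped only through PBS library 2 and DOX library 1, and the log2 fold change was 0.35 (SE 0.14, adjusted p = 0.484). Pex11a, a membrane protein of peroxisome division, had 48.3, 51.9 and 50.2 CPM in PBS and 48.0, 61.9 and 66.2 CPM in DOX. Its log2 fold change of 0.23 had an SE of 0.12 (adjusted p = 0.570). In it too, DOX library 1 stood with the PBS libraries.

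The largest fold change of the list was that of Acaa1b, and its close relative Acaa1a did not share it. Both encode peroxisomal 3-ketoacyl-CoA thiolases, which complete each round of peroxisomal oxidation, and lie on chromosome 9 (Acaa1b at chr9:119148023-119157093 on the minus strand, Acaa1a at chr9:119339676-119350299 on the plus strand). Acaa1b stood at 84.6, 51.3 and 65.8 CPM in PBS and at 94.8, 309.8 and 404.2 CPM in DOX. All DOX libraries were above all PBS libraries, but DOX library 1 only just, next to PBS library 1. The log2 fold change was 2.0 (SE 0.46), 4.01-fold with a 95% interval of 1.93 to 8.31-fold. It did not pass over all genes (edgeR adjusted p = 0.259, DESeq2 adjusted p = 0.069, range over all alternatives 0.0183 to 0.548), and a two-sided exact permutation test gave p = 0.1, its smallest possible value with 3 against 3 libraries. Acaa1b was called when no gene was filtered for low counts (adjusted p = 0.0271) and when DOX replicate 1 was left out (adjusted p = 0.0183). How many genes in all were called without DOX replicate 1 is not given here. Acaa1a stood at 163.1, 259.4 and 162.5 CPM in PBS and at 165.1, 182.4 and 191.2 CPM in DOX. Its log2 fold change of -0.12 had an SE of 0.19 (adjusted p = 0.859) and turned to 0.14 without PBS replicate 2.

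Per length, in the deposited FPKM, the ratio of Acaa1b to Acaa1a was 0.460, 0.175 and 0.360 in the PBS libraries and 0.509, 1.51 and 1.88 in the DOX libraries. Acaa1a was thus the more abundant thiolase in all PBS libraries and in DOX library 1, and Acaa1b in DOX libraries 2 and 3. The mean ratio was 0.332 ± 0.144 for PBS and 1.30 ± 0.708 for DOX (SD, n = 3 each), with no overlap. The log2 ratio was higher by 1.88 in DOX (two-sided exact permutation test, p = 0.1, again its smallest value), and this ratio was chosen after the values of the genes had been seen. The longest coding transcripts of the 2 genes are identical at 1531 of 1638 aligned bases (93.5%). Of all stretches of 50 bases in the Acaa1b transcript, 35.5% also occur in Acaa1a, and how the authors' counting assigned reads from them is not given in the sources used here.

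**Figure D2:**
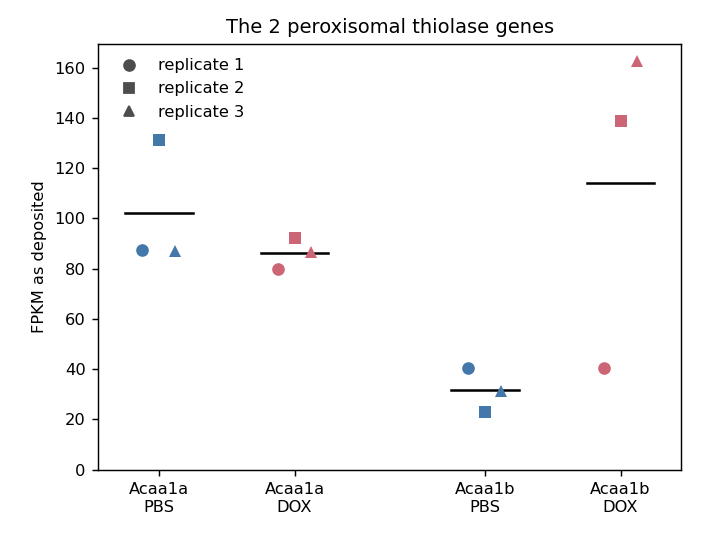
FPKM of the peroxisomal thiolase genes Acaa1a and Acaa1b in each of the 6 libraries (1 point per gene and library). Acaa1b reached 138.9 and 162.6 FPKM in DOX libraries 2 and 3 and 23.0 to 40.6 in the other 4, while Acaa1a ranged from 79.8 to 131.3.

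The bases just before the RefSeq start sites of the thiolase genes are shown because transcripts this alike had such different values. Each is the 130 bases before the start, written 5′ to 3′ on the strand of the gene (GRCm38.p6, chr9:119341164-119341293 plus strand for Acaa1a and chr9:119157094-119157223 minus strand for Acaa1b). Capitals mark CCAAT or its reverse complement ATTGG, the letters of the CCAAT box, a common promoter element.
Acaa1a: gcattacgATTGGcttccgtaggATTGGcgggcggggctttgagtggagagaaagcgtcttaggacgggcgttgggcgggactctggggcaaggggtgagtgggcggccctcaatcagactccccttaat
Acaa1b: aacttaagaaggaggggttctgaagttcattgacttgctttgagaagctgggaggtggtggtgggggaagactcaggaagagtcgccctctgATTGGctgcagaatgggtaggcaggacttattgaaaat
The Acaa1a stretch holds ATTGG at 2 places, with the first base at -122 and -107 from the start, and the Acaa1b stretch at 1 place, at -38. Of 32851 mouse promoters in the same RefSeq table, 22.4% hold CCAAT or ATTGG in the same 130 bases. In GENCODE M21, the Acaa1a stretch lies outside annotated exons but within introns of longer transcripts, Acaa1a-206 on its own strand and transcripts of Myd88 and Slc22a14 on the other.

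The response element of PPAR alpha with RXR is a direct repeat of AGGTCA with a spacer of 1 base, AGGTCANAGGTCA. With up to 2 mismatches, on both strands and in the 250 bases before to 50 bases after the RefSeq start, it was found in 3 of the 24 promoters of the 22 members with an entry (12.5%). Of all 32851 promoters, 3.86% hold it. The 3 matches are printed with 8 bases on either side and the matched letters in capitals, to show which members carry them this close to the start.
Acot4: ccgaagcaTGACCTTTGGCCGgtctgtgc
Creb3l3: ctgtaagtAGGGGAGAGGTCAcacagacc
Slc25a20: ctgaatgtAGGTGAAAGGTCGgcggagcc
The Acot4 match reads on the opposite strand, at chr12:84038358-84038386, and covers bases -13 to -1 before the start. The Creb3l3 match, at chr10:81092780-81092808 on the minus strand, covers bases -209 to -197 of a start inside the annotated gene, and the Slc25a20 match, at chr9:108662134-108662162, covers bases 6 to 18 after the start. None of the 3 genes had a large difference, with log2 fold changes of 0.09, -0.10 and 0.07. A match is a run of letters, not a measured site, and known elements farther from a start fall outside this window. The promoters of Angptl4, Crat, Acaa2, Decr1, Hsd17b4, Cyp4a10, Cyp4a14, Cyp4a31 and Vnn1 were not analysed here.

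The omega hydroxylases Cyp4a14 and Cyp4a10 had a larger ratio of highest to lowest library within each group than any other member. The 4 genes of this role lie side by side on chromosome 4 (Cyp4a14 at chr4:115486200-115496142, then Cyp4a10, Cyp4a31 and, up to base 115621602, Cyp4a32). Cyp4a14 stood at 17.7, 811.9 and 101.2 CPM in PBS and at 129.7, 162.8 and 1130.0 CPM in DOX. The highest PBS library was thus 45.9 times the lowest, and in DOX 8.71 times. The log2 fold change was 0.61 with an SE of 1.23 (95% interval -2.21 to 3.44, edgeR adjusted p = 0.898). It moved to 3.0 when PBS replicate 2 was left out and to -1.08 when DOX replicate 3 was, so its direction rested on single libraries.

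Cyp4a10 had the same high libraries, with 36.7, 418.6 and 162.6 CPM in PBS and 93.3, 358.7 and 626.9 CPM in DOX. The difference was 0.80 on the log2 scale (SE 0.84, adjusted p = 0.776). It moved to 1.85 when PBS replicate 2 was left out and to 0.14 when DOX replicate 3 was. Cyp4a31, a far scarcer gene, had 3.0, 13.9 and 3.69 CPM in PBS and 14.9, 9.87 and 16.0 CPM in DOX. Here PBS library 2 lay with the DOX libraries, and the log2 fold change was 0.99 (SE 0.53, adjusted p = 0.565). Cyp4a32 varied least of the 4, at 6.46, 10.1 and 10.3 CPM in PBS and 9.10, 12.3 and 12.0 CPM in DOX (log2 fold change 0.32 with SE 0.21, edgeR adjusted p = 0.631). The median log2 fold change of the 4 was 0.71, and it was 0.20 to 1.94 when single libraries were left out. The Cyp4a32 and Cyp4a10 transcripts are identical at 97.2% of aligned bases, and 46.8% of the stretches of 50 bases in Cyp4a32 occur in Cyp4a10 or Cyp4a31. The low values of Cyp4a31 and Cyp4a32 are therefore uncertain, since reads of the abundant Cyp4a10 could have been counted there. Cyp4a14 is more distant, at 75.2% identity with Cyp4a10, and shares 0.245% of its stretches with another gene.

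**Figure D3:**
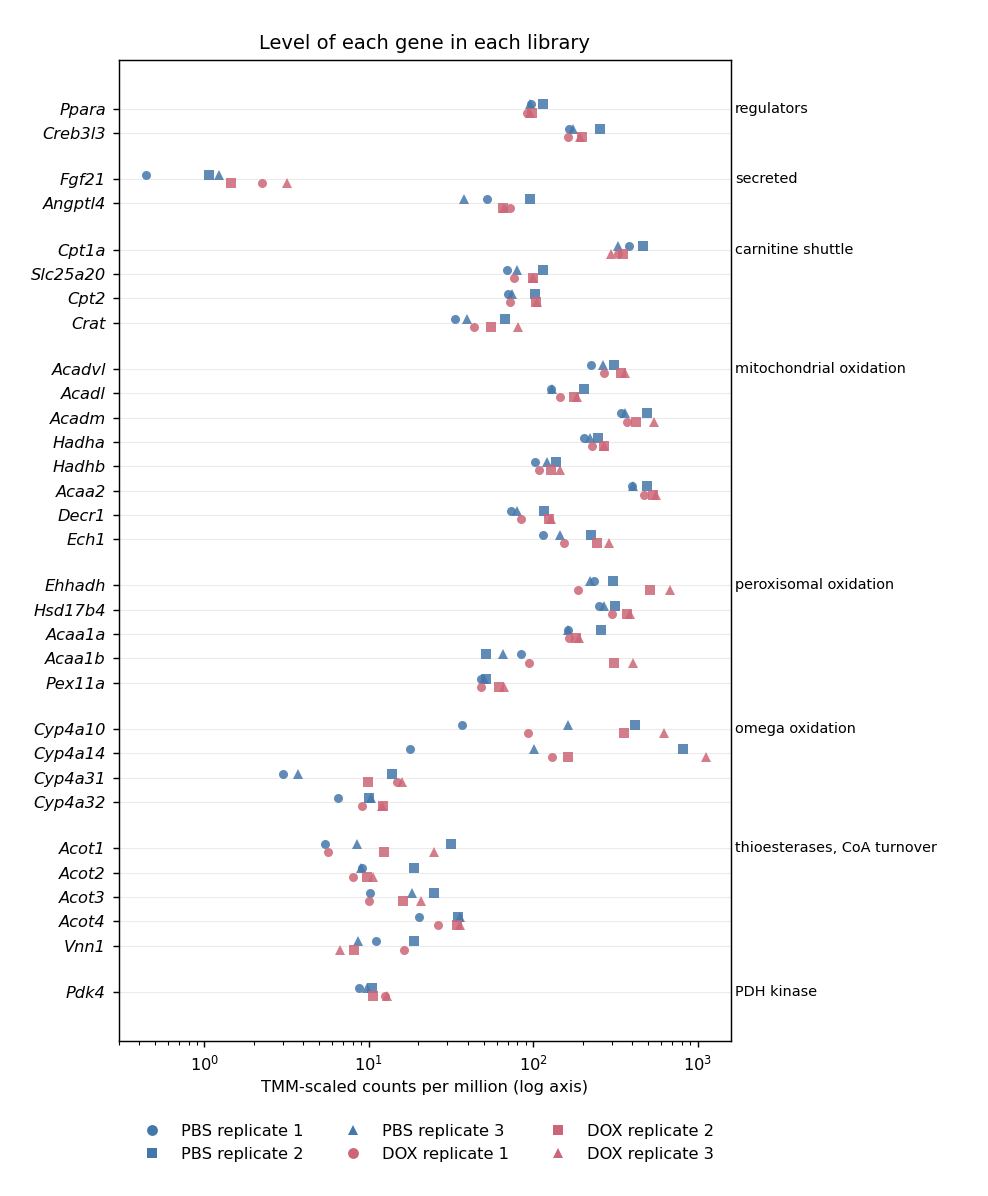
TMM-scaled CPM of each of the 31 genes (log axis) in each library, PBS and DOX in separate colours, ordered by role. Cyp4a10, Cyp4a14 and Acot1 had the largest ratios of highest to lowest library within both groups, and Acaa1b, Fgf21 and Pdk4 are the genes whose groups do not overlap.

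The acyl-CoA thioesterases, which free fatty acids from coenzyme A again, gave no called change. The median log2 fold change of the 5 genes of thioesterases and coenzyme A turnover was -0.19, and only Acot4 was above 0, at 0.09, and at -0.04 with scaling by library size only. Acot1, the cytosolic enzyme, stood at 5.38, 31.6 and 8.48 CPM in PBS and at 5.66, 12.4 and 24.9 CPM in DOX. PBS library 2 and DOX library 3 were again the high ones, and the log2 fold change of -0.07 (SE 0.69, edgeR adjusted p = 0.983) was 1.05 without PBS replicate 2. Acot2, the mitochondrial enzyme, had 9.02, 18.8 and 8.99 CPM in PBS and 8.01, 9.78 and 10.6 CPM in DOX, so that PBS library 2 alone stood apart. Acot3, a peroxisomal enzyme, was at -0.19 (SE 0.34). The Acot genes lie in a cluster on chromosome 12, and 33.2% of the stretches of 50 bases in Acot1 occur in its relatives. Vnn1, the pantetheinase that breaks down a product of coenzyme A, had 11.1, 18.9 and 8.64 CPM in PBS and 16.5, 8.12 and 6.64 CPM in DOX. DOX library 3 was its lowest, unlike in most members, and the log2 fold change of -0.30 had an SE of 0.38 (adjusted p = 0.818).

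Pdk4, the kinase that shuts off pyruvate dehydrogenase and so turns the cell from glucose to fat as fuel, differed little but without overlap (chr6:5483351-5496309). It stood at 8.77, 10.4 and 9.68 CPM in PBS and at 12.5, 10.5 and 12.96 CPM in DOX. The nearest libraries, PBS 2 and DOX 2, had almost the same level, and the log2 fold change was 0.32 (SE 0.13, 95% interval 0.02 to 0.62, edgeR adjusted p = 0.490). With Fgf21 and Acaa1b it made 3 members of 31 with all DOX libraries above all PBS libraries, against 7.84% of all tested genes. In the other direction there were 0 of 31, against 9.02% of all tested genes. With scaling by library size only there was 1, Ppara, and the share of all tested genes under that scaling is not given here.

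Compared per length over all 6 libraries, the enzymes of mitochondrial oxidation led. Acaa2 had the highest mean at 317.2 FPKM, followed by Acadm at 203.5 and Ech1 at 169.7 FPKM. Acadvl, Cyp4a10, Hsd17b4, Ehhadh and Cyp4a14 came next, at 134.6, 131.7, 116.9, 116.3 and 113.4 FPKM. The order of those 5 is not firm, since Cyp4a10 alone ranged from 18.8 to 270.8 FPKM and Cyp4a14 from 5.70 to 307.8 FPKM. Acaa2, in contrast, ranged only from 284.8 to 360.2 FPKM and stood above every other member in every library. Ppara had a mean of 9.49 FPKM, and the scarcest member was Fgf21 at 1.0 ± 0.46 FPKM for PBS and 2.28 ± 0.75 FPKM for DOX (SD, n = 3 each).

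Members tended to be high in the same libraries, and this crossed the groups. PBS library 2 was the highest PBS library in 27 of 31 members, against 36.9% of all tested genes. The exceptions were Fgf21, Acaa1b, Cyp4a32 and Acot4, and for Acaa1b PBS library 2 was the lowest of all 6. DOX library 3 was the highest DOX library in 25 of 31 members, against 34.8% of all tested genes. The pattern in PBS depended little on scaling, with 26 of 31 by library size only against 26.0% of all tested genes. That in DOX did, with 12 of 31 against 19.3% of all tested genes. DOX library 1 was the lowest DOX library in 25 of 31 members by TMM, against 32.98% of all tested genes, and in 24 by library size only, against 29.9%. All members together took 0.360%, 0.586% and 0.395% of counts in the PBS libraries and 0.366%, 0.532% and 0.635% in the DOX libraries. The median ratio of highest to lowest PBS library was 1.59 over the members and 1.26 over all tested genes, and in DOX it was 1.36 and 1.28.

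**Figure D4:**
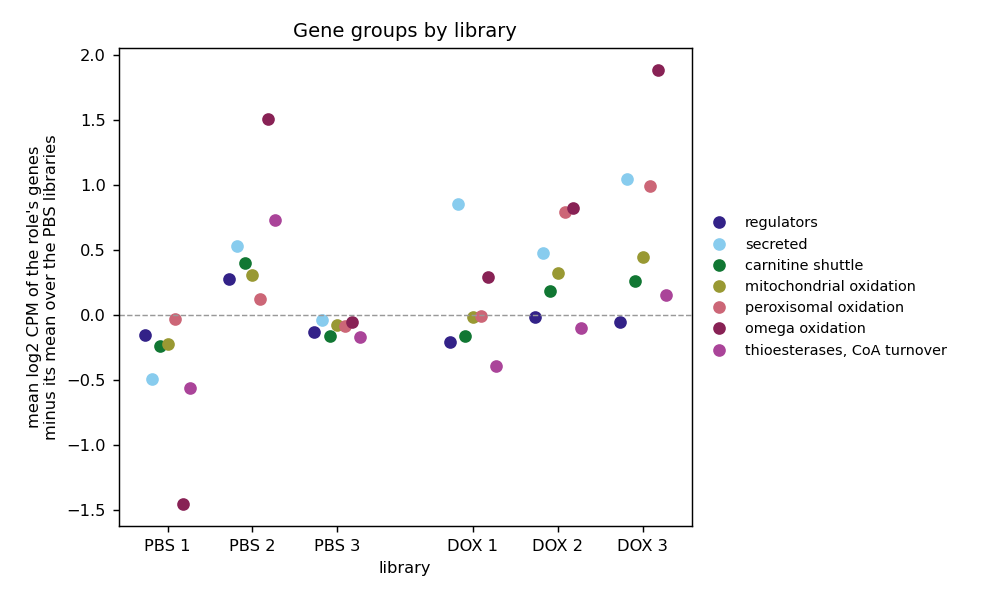
Mean log2 CPM of the genes of each role in each library, minus the mean of the same role over the PBS libraries (y axis, log2 units; 1 point per role and library). Omega oxidation ranged from -1.46 in PBS library 1 to 1.51 in PBS library 2 and reached 1.89 in DOX library 3, while mitochondrial oxidation stayed between -0.23 and 0.45.

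Peroxisomal oxidation had the same highest libraries in each group, and Acaa1b was the only one of its 5 genes for which PBS library 2 was not the highest in PBS. Its mean log2 CPM, relative to PBS, was -0.03, 0.12 and -0.09 in the PBS libraries and -0.01, 0.79 and 0.99 in the DOX libraries. DOX libraries 2 and 3 thus stood apart from DOX library 1, which lay at the PBS level. Bche had its highest value in DOX library 1, at 969.2 CPM, the lowest of the DOX libraries for peroxisomal oxidation.

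Markers of other cells and of liver zones differed between these libraries too. The 10 cholangiocyte markers, cells of the bile ducts, summed to 319.8, 433.8 and 293.1 CPM in PBS and to 279.3, 253.9 and 145.9 CPM in DOX, and 10 of 10 had log2 fold changes below 0 (median -0.66). The 10 endothelial markers summed to 174.9, 87.8 and 168.0 CPM in PBS and to 257.6, 145.2 and 232.0 CPM in DOX, lowest in PBS library 2, and 9 of 10 had log2 fold changes above 0 (median 0.88). The 10 stellate cell markers summed to 302.0, 182.1 and 388.1 CPM in PBS and to 446.9, 381.1 and 191.7 CPM in DOX. They were lowest in PBS library 2 and DOX library 3, the libraries in which, by TMM, most members were highest. The 8 periportal hepatocyte markers, of the zone around the portal veins, had mean log2 CPM of 9.55, 10.03 and 9.29 in PBS and 9.28, 9.65 and 9.92 in DOX. By this mean, as for most members by TMM, PBS library 2 and DOX library 3 were highest and DOX library 1 lowest in their groups. Their sums were 9680, 13368 and 8831 CPM in PBS and 8698, 11963 and 11511 CPM in DOX. By sum, DOX library 2 was thus the highest DOX library. The 8 pericentral markers, of the zone around the central veins, were lowest in PBS library 2, with 6.99, 6.02 and 6.95 in PBS and 6.87, 7.26 and 6.92 in DOX. Macrophage markers summed to 1023, 1100 and 1068 CPM in PBS and to 1204, 1119 and 915.5 CPM in DOX, lowest in DOX library 3. Neutrophil markers were scarce, at sums of 31.3, 15.0 and 25.6 CPM in PBS and 20.1, 13.3 and 17.4 CPM in DOX, and 7 of 7 tested had log2 fold changes below 0 (median -0.52). Lymphocyte and skeletal muscle markers summed to 2.48 CPM or less in every library. No marker of these lists that is in the count table was at 0 in all libraries. Trac, Myh4 and Myh1 are not in it, nor are Tf of the hepatocyte list and Adipoq, Lep and Cfd of the adipocyte list. The part of these cells in the members' values was not tested. PBS replicate 2 and DOX replicate 3 were also left out together, a choice made after seeing the data. These are the libraries in which, by TMM, most members were highest. Then 27 of 31 members had log2 fold changes above 0, their median was 0.32 and 0 passed the test. The share above 0 and the median over all tested genes in this fit are not given here, so these values have no background beside them.

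Other genes of the pathway were followed by lists, and in none of the 7 lists did a gene pass edgeR's test, against 0.0291% of all tested genes. For the counts below, 47% of all tested genes had a log2 fold change above 0, and DESeq2 called 1.19% of the genes it tested. Of the list of ketone body synthesis and export, Bdh1, which reduces acetoacetate, had 18.2 ± 9.17 CPM in PBS livers and 28.6 ± 8.81 CPM in DOX livers (SD, n = 3 each). Its groups overlapped, and the log2 difference was 0.65 (SE 0.39, edgeR adjusted p = 0.613).

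Of 19 other mitochondrial genes, 15 had log2 fold changes above 0 (median 0.14). The 3 of smallest p were Slc22a5, the carnitine importer, at -0.44, Acad9 at 0.23 and Eci1, an isomerase of unsaturated chains, at 0.41, with adjusted p-values of 0.430, 0.466 and 0.500. Of 12 other genes of omega oxidation, 5 were above 0 (median -0.10). Cyp4f16, Cyp4f15 and Aldh3a2, which oxidises fatty aldehydes, were at -0.54, -0.17 and 0.31, with adjusted p-values of 0.457, 0.591 and 0.649. The list also holds 2 more Cyp4a genes, named here after their values were seen, Cyp4a12a at -0.21 (SE 0.89) and Cyp4a12b at -0.69 (SE 0.72).

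Of 21 other peroxisomal genes, 15 had log2 fold changes above 0 (median 0.10), and 2 passed with DESeq2 though not with edgeR. Scp2 encodes a sterol carrier protein and a peroxisomal thiolase for branched chains. It stood at 1195, 1154 and 1135 CPM in PBS and at 1890, 2525 and 2455 CPM in DOX (log2 fold change 0.98, SE 0.16, edgeR adjusted p = 0.106, DESeq2 adjusted p = 5.6e-09). The gap between the groups exceeded the range within either. Hacl1, the lyase of the peroxisomal alpha oxidation pathway, stood at 222.5, 366.6 and 287.9 CPM in PBS and at 428.8, 573.1 and 689.0 CPM in DOX (log2 fold change 0.95, SE 0.22, edgeR adjusted p = 0.266, DESeq2 adjusted p = 0.0036). Abcd2, a transporter of very long chains into peroxisomes, was at 0.33 (SE 0.10, edgeR adjusted p = 0.399).

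Of 12 genes of fatty acid uptake and activation, 10 had log2 fold changes above 0 (median 0.32), and 2 passed with DESeq2 only. Slc27a2, which imports and activates very long chains, had 687.3 ± 73.2 CPM in PBS and 1051 ± 153 CPM in DOX (SD, n = 3 each; log2 fold change 0.61, edgeR adjusted p = 0.314, DESeq2 adjusted p = 0.0088). Acsl3, an acyl-CoA synthetase, was at 0.57 (edgeR adjusted p = 0.259, DESeq2 adjusted p = 0.029), and Acsm5, a medium-chain synthetase, at 0.51 (edgeR adjusted p = 0.374). Groups did not overlap in 5 of the 12 genes with DOX higher and in 1 with DOX lower, against 7.84% and 9.02% of all tested genes.

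A wider list of lipid-handling genes linked to PPAR alpha had 20 tested genes, 12 of them above 0 (median 0.15), and DESeq2 called 4 higher and 1 lower. Fabp1, which carries fatty acids in the cytosol of hepatocytes, had 15.3, 10.3 and 10.1 CPM in PBS and 150.2, 45.4 and 75.2 CPM in DOX (log2 fold change 2.92, SE 0.41, edgeR adjusted p = 0.105). It was highest in DOX library 1, where Acaa1b and Ehhadh were lowest among the DOX libraries. Acaca, which makes the malonyl-CoA that inhibits Cpt1a and is not itself an oxidation enzyme, was at 0.88 (SE 0.14, edgeR adjusted p = 0.107). Mgll, a lipase of monoglycerides, was at 1.03 (SE 0.20, edgeR adjusted p = 0.196). Of 22 partners and cofactors of the PPAR receptors, 7 had log2 fold changes above 0 (median -0.06). Fgfr1, a receptor of FGF21, was at -0.90, Lpin1, a coactivator and phosphatidate phosphatase, at 1.09 and Ppard, a related receptor, at 0.48, with adjusted p-values of 0.382, 0.399 and 0.433.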

How the data were processed

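Per the labels' protocols, libraries were made with a SMARTER mRNA-Seq kit from 1.3 ug of total RNA. GRCm38 and mm10 are the builds in the submitters' processing notes. No source used here names the aligner, the counter or whether strand was used. The authors deposited whole-number read counts per gene and FPKM values for the same 6 libraries. The deposited FPKM are these counts over library total and over a gene length that was the same in all libraries, in 18913 of 18913 genes checked (relative tolerance 1e-05).

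Groups came from the labels. The test was that of edgeR 4.0.16 under R 4.3.3 on the counts (filterByExpr, TMM, quasi-likelihood test, no replicate block), with Benjamini-Hochberg adjustment over all 13725 tested genes and a threshold of 0.05. SEs were derived from the F statistic and intervals are 95%. Exact permutation tests of 3 against 3 libraries cannot go below p = 0.1. Replicates were no copies of each other (chi-square over its degrees of freedom, 41.9 to 132.2). The members and gene lists were chosen with earlier results of these data known. All members are named, and of each other list the 3 genes of smallest p, except that 2 genes this selects are not reported here. Of the other lists, 1 entry of the mitochondrial and 2 of the wider PPAR alpha list were not tested. The procedure was also run on simulated counts in which the changed genes were picked at random. That run did not model the rise of albumin in DOX and so does not test the scaling, and its outcome is not given here. Sequences are from RefSeq (GRCm38.p6) and gene positions from GENCODE M21. Alternatives were RLE and library size scaling, DESeq2 1.42.0, limma 3.58.1 voom, other filters, a replicate block, leaving out libraries, and limma on log2 of FPKM plus 1 or 0.1.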

Additional observations from a re-analysis of the deposited data

How the results depend on the processing

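Across 16 alternative settings, 20 of the 31 members kept the sign of their log2 fold change in all settings and 11 did not. Those 11 were Slc25a20, Hadhb, Acot4, Acot1, Acot2, Acot3, Creb3l3, Acaa1a, Vnn1, Angptl4 and Cyp4a14, and none of them was called. Members with a log2 fold change above 0 numbered 20 to 29 when single libraries were left out. The share of all tested genes above 0 in those fits is not given here. Over all tested genes, edgeR called 4 (3 higher, 1 lower), DESeq2 176 (128 higher, 48 lower), limma-voom 2 (1 higher), edgeR without a filter on low counts 61 (45 higher, 16 lower), and with library size scaling only, 2 were lower. The same settings called 0 members, apart from 1 higher member, Acaa1b, without the filter. Leaving out single libraries gave 0 to 1 genes lower and 0 to 1 members called, all higher (Acaa1b, without DOX replicate 1). How many of all genes were called higher in these fits is not given here, so the call of Acaa1b has no background share beside it. With single libraries left out, the median log2 fold change of omega oxidation ranged from 0.20 to 1.94, the latter without PBS replicate 2. The cause of these changes was not tested.

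With the replicate number as a block, edgeR called 21 genes (17 higher, 4 lower) and 0 members. Libraries of the same number correlated in their deviations from the group means at 0.19, 0.13 and 0.01, and those of different number at -0.18 to 0.06. Libraries 1 and 2 thus correlated best with their own number, while DOX library 3 correlated better with PBS library 2 (0.06) than with PBS library 3. The labels give the numbers no meaning, so they were not taken as a pairing. Depth limits mainly Fgf21, with 19 to 118 counts per library. The largest SEs were those of Cyp4a14, Cyp4a10 and Acot1, at 1.23, 0.84 and 0.69.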
